A study of Bos taurus with 48 samples.

Results

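The energy contrast among heifers on the high-protein diet was examined at 12 months of age, with 12 of the 48 adipose tissue samples of the series, chosen by the time point, energy and protein labels. All 12 came from Norwegian Red heifers and all were fed the high-protein diet. The 6 high-energy heifers (HPHE) were compared with the 6 low-energy heifers (HPLE), and each group held 3 heifers of the high milk-yield pedigree (HMY) and 3 of the low clinical mastitis pedigree (LCM). Per the study's methods, high-energy heifers had free access to grass silage, low-energy heifers received restricted rations of silage diluted with straw, and a piece of subcutaneous fat beside the tail base was taken from each animal. Fast-growing high-energy heifers also reached puberty earlier than low-energy heifers, so energy intake, body size and sexual maturity cannot be told apart in these samples. RNA was selected for quality before sequencing, and the counts on genes per sample ranged from 18497583 to 59809633, with medians of 32166717 in HPHE and 27724330 in HPLE heifers.

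Subcutaneous fat of cattle is the main site of fatty acid synthesis, because ruminant liver makes little fat. Acetate from the rumen is activated to acetyl-CoA, carboxylated and built into palmitate with NADPH from malic enzyme, isocitrate dehydrogenase and the pentose phosphate pathway, and desaturases and elongases then modify the chain. Between the adipocytes lie fibroblasts that lay down collagen, vessels, nerves and immune cells, and in a whole biopsy fewer cells of a type and less RNA per cell cannot be told apart.

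Expression is given as TMM-normalized read counts scaled to a common library total (CPM), and log2 fold changes as HPHE against HPLE, so that positive values are higher in HPHE heifers. Of 13339 genes tested, 13 were differentially expressed genes (DEG) at a false discovery rate (FDR) under 0.1, which is 0.0975% of all tested, with 7 up-regulated and 6 down-regulated in HPHE heifers (edgeR likelihood ratio test). Up-regulated genes were SERPINA5, S100B, GSTM1, REXO2, UNC79, BAIAP2L1 and 1 gene without a symbol, and down-regulated genes were NNAT, SELE and 4 others. All 13 had the same sign of log2 fold change in both pedigrees. They were called from these same heifers, so the shared sign largely follows from the selection and is no separate evidence. The quasi-likelihood F test of edgeR called 0 genes (lowest FDR 0.361) with 1165 at an unadjusted p under 0.05, beside 1128 in the likelihood ratio test, and DESeq2 called 25 genes (0.187%), 12 of the 13 among them. With a dispersion prior of 10 degrees of freedom 16 genes were called (0.12%), 10 of the 13 among them. Scaling by library size alone split the calls into 3 higher and 9 lower. Single heifers moved the count: 78 DEG were called without HPLE heifer 7, 63 without HPHE heifer 15, 8 without HPHE heifer 23, 7 without HPLE heifer 1 or 9, 6 without HPHE heifer 2 or HPLE heifer 13, and 3 without HPHE heifer 11 or 19.

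**Figure D1:**
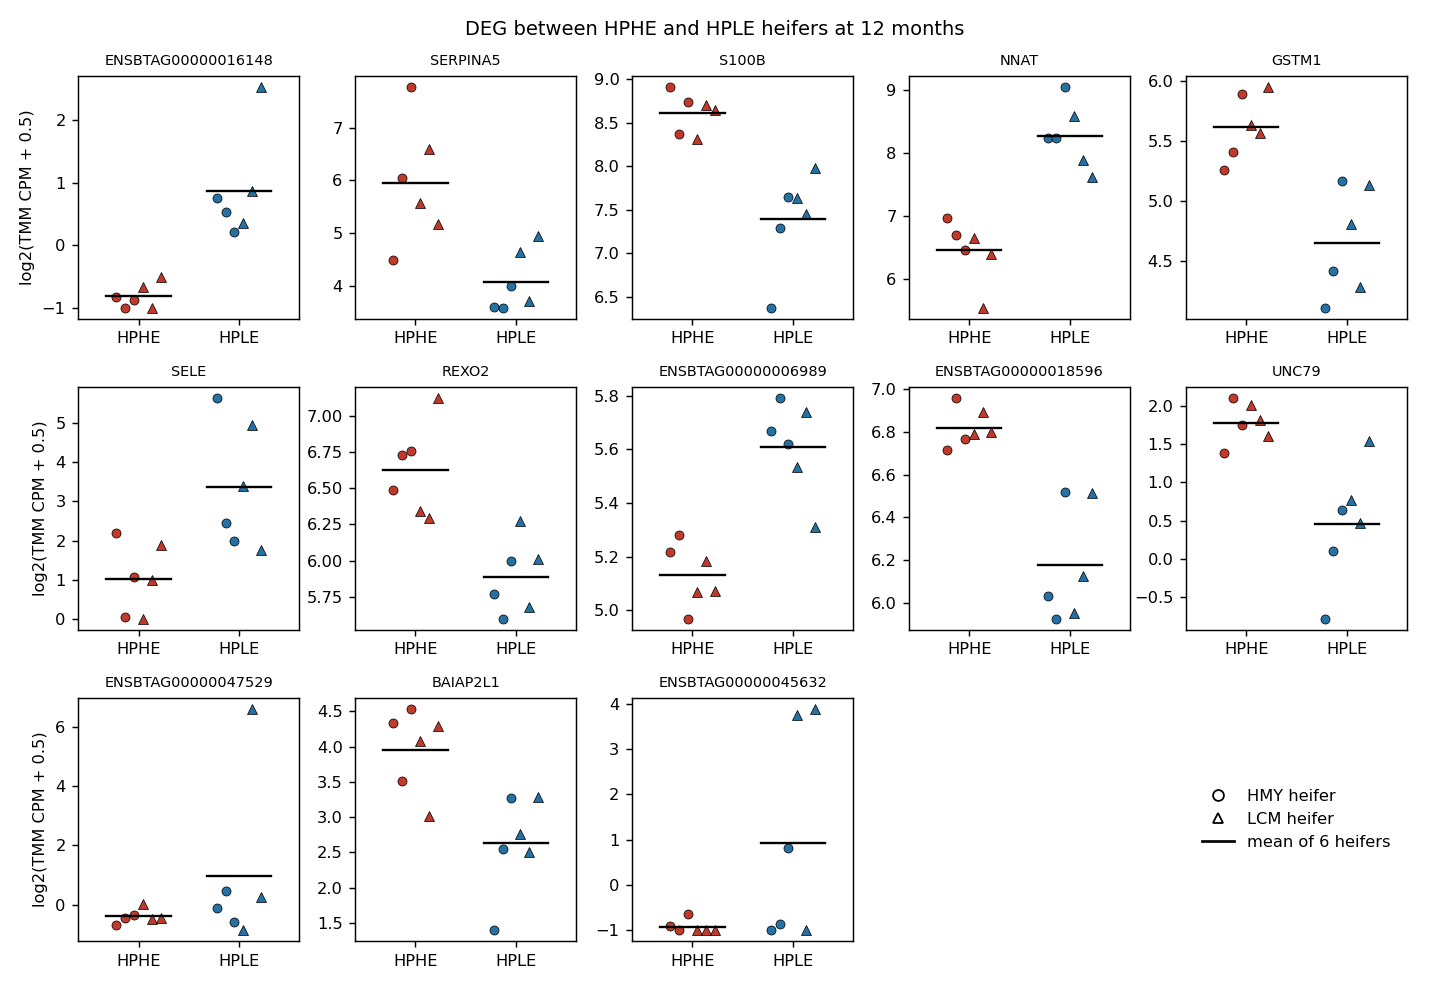
TMM-normalized CPM of the 13 DEG on a log2 scale with a pseudocount of 0.5, 1 point per heifer (circles HMY, triangles LCM) and a line at the mean of 6 heifers. HPHE and HPLE heifers do not overlap for 7 of the 13 genes, beside 0.577% of all genes tested. The 13 were called from these same values, so this is no separate evidence. In ENSBTAG00000047529 a single HPLE heifer at 96.4 CPM lies far above the rest.

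S100B encodes a calcium-binding protein of adipocytes and of glial cells. Its expression ranged from 317 to 480 CPM in HPHE heifers (median 408) and from 82.4 to 252 CPM in HPLE heifers (median 186). Every HPHE heifer lay above every HPLE heifer. The log2 fold change was 1.19 (SE 0.245, n = 6 per group, edgeR FDR 0.00536), and S100B stayed a DEG in all 12 fits that each left out 1 heifer. The Schwann cell and nerve markers SOX10, CDH19, ERBB3, L1CAM and SCN7A had log2 fold changes from -0.06 (SOX10, edgeR FDR 0.984) to 0.24 (SCN7A, edgeR FDR 0.933). None of these 5 was a DEG. SOX10, the transcription factor that marks the lineage, had 1.23 to 5.17 CPM in HPHE heifers and 0.922 to 3.18 CPM in HPLE heifers, with overlapping ranges.

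SERPINA5, the serine protease inhibitor also known as protein C inhibitor, had 21.9 to 219 CPM in HPHE heifers (median 56.4) and 11.5 to 30.4 CPM in HPLE heifers (median 13.9). HPHE heifers exceeded the highest HPLE heifer in 5 of 6 cases. With a log2 fold change of 2.30 (SE 0.474, edgeR FDR 0.00536), SERPINA5 was the other DEG that was called in every fit with 1 heifer left out.

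NNAT encodes neuronatin, a small membrane protein whose gene is imprinted. HPHE heifers had 46.2 to 125 CPM (median 93.4) and HPLE heifers 196 to 528 CPM (median 300), without overlap. Its log2 fold change was -1.83 (SE 0.401, edgeR FDR 0.0156). This value was -1.83 in HMY and -1.83 in LCM heifers, but the call was lost without HPHE heifer 11 or 19 (highest FDR 0.149). Of the 6 imprinted genes that could be tested, of 22 listed, NNAT alone was a DEG, beside 0.0975% of all genes tested. The list's median log2 fold change was -0.39 beside -0.01 over all genes tested. Of the 6, 5 were also DEG of the energy contrast at low protein (below). Most genes have a symbol through that contrast, so the sign of this median is no independent result. PLAGL1, a zinc finger transcription factor gene, had 32.8 to 55.3 CPM in HPHE heifers and 50.5 to 71.5 CPM in HPLE heifers, with a log2 fold change of -0.43 and an FDR of 0.174 (edgeR). GRB10, an adaptor that dampens insulin receptor signalling, had a log2 fold change of -0.53 (edgeR FDR 0.52), and IGF2, the fetal growth factor gene, was at 0.04 (edgeR FDR 0.975).

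GSTM1, which conjugates glutathione to reactive compounds, ranged from 37.9 to 61.5 CPM in HPHE heifers (median 48.1) and from 16.8 to 35.5 CPM in HPLE heifers (median 24.2). The groups did not overlap. Its log2 fold change was 0.94 (SE 0.225, edgeR FDR 0.0779), and 6 of 12 fits with 1 heifer left out called it. REXO2, an oligoribonuclease of mitochondria, had 78.1 to 139 CPM in HPHE heifers (median 97.5) against 47.9 to 76.8 CPM in HPLE heifers (median 58.7), again without overlap. Its log2 fold change was 0.76 (SE 0.187, edgeR FDR 0.0881), with 4 of 12 such fits calling it.

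UNC79, an accessory subunit of the sodium leak channel complex, had a low level of 2.11 to 3.78 CPM in HPHE heifers (median 2.93) and 0.0824 to 2.40 CPM in HPLE heifers (median 0.975). Only the highest HPLE heifer reached the HPHE range, and the log2 fold change was 1.71 (SE 0.436, edgeR FDR 0.0975). BAIAP2L1, a membrane-bending protein linked to actin, had 7.56 to 22.6 CPM in HPHE heifers (median 17.7) and 2.14 to 9.21 CPM in HPLE heifers (median 5.81). HPHE heifers lay above the highest HPLE heifer in 5 of 6 cases, with a log2 fold change of 1.40 (SE 0.357, edgeR FDR 0.0975). These genes were called in 6 and 4 of the 12 fits with 1 heifer left out.

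SELE encodes E-selectin, with which activated endothelium captures leukocytes. HPHE heifers had 0.501 to 4.10 CPM (median 1.55) and HPLE heifers 2.87 to 49.6 CPM (median 7.52), with 4 of 6 HPHE heifers below the lowest HPLE heifer. Its log2 fold change was -3.12 (SE 0.763, edgeR FDR 0.0881). The highest values came from HPLE heifers 1 and 13 (49.6 and 30.5 CPM), and without heifer 13 the log2 fold change was -2.44 with an FDR of 0.401.

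Among the DEG without a symbol, ENSBTAG00000016148 had the smallest p, at 0 to 0.205 CPM in HPHE heifers (median 0.0546) and 0.652 to 5.30 CPM in HPLE heifers (median 1.07). The ranges did not overlap, and the log2 fold change was -4.37 (SE 0.825, edgeR FDR 0.00151). ENSBTAG00000018596 was higher in every HPHE heifer (105 to 124 CPM) than in any HPLE heifer (60.2 to 91.4 CPM), and ENSBTAG00000006989 was lower (30.8 to 38.4 against 39.2 to 54.9 CPM). ENSBTAG00000047529 had 96.4 CPM in HPLE heifer 13 and less than 1 CPM in the other 11 heifers, and without heifer 13 it had too few counts to be tested (exact permutation test, two-sided, p = 0.184). ENSBTAG00000045632, named bta-mir-2904-1 in the study's tables, was at 0 to 0.141 CPM in HPHE heifers and at 0 to 14.3 CPM in HPLE heifers with a median of 0.658 (exact permutation test, two-sided, p = 0.106). The name marks 1 of several numbered copies of this miRNA, so its counts are uncertain where reads are shared.

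Over all genes, the CPM ranges of the groups did not overlap for 77 genes (0.577% of those tested), 43 with all HPHE heifers above and 34 with all below. For the 10 genes next in order of p the FDR ran from 0.101 to 0.171. SOST, which encodes the Wnt antagonist sclerostin, had 10.04 to 61.5 CPM in HPHE heifers (median 20.8) and 0.618 to 10.9 CPM in HPLE heifers (median 2.53). With a log2 fold change of 3.04 (SE 0.789) it had an FDR of 0.101 (edgeR). XYLT1, which starts glycosaminoglycan chains on proteoglycans, had 22.6 to 44.4 CPM in HPHE heifers and 9.64 to 21.9 CPM in HPLE heifers, without overlap (log2 fold change 1.11, edgeR FDR 0.101). SYBU, a microtubule adaptor for vesicles, lay lower in all HPHE heifers (9.46 to 16.3 CPM) than in any HPLE heifer (17.8 to 24.5 CPM, edgeR FDR 0.101). CCDC3, which encodes a secreted protein, had a log2 fold change of 0.74 (edgeR FDR 0.146). GPNMB, a transmembrane glycoprotein of lipid-laden macrophages, had a median of 55.3 CPM in HPHE heifers and 120 CPM in HPLE heifers, where heifer 13 reached 624 CPM, and its log2 fold change was -1.72 (edgeR FDR 0.147). ENSBTAG00000023659, annotated as metallothionein-2, a zinc-binding protein, was at 1.98 to 5.24 CPM in HPHE heifers and 4.06 to 16.1 CPM in HPLE heifers (edgeR FDR 0.13). Of the others without a symbol, ENSBTAG00000008300 had 2229 to 5517 CPM in HPHE heifers and 1660 to 2630 CPM in HPLE heifers (edgeR FDR 0.115), ENSBTAG00000037558 had 0.595 to 1.09 against 1.03 to 5.48 CPM (edgeR FDR 0.146), and ENSBTAG00000005908 had 2.65 to 3.70 against 4.06 to 6.50 CPM (edgeR FDR 0.161).

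The 16 tested genes of fatty acid synthesis and NADPH supply had a median log2 fold change of 0.65, beside -0.01 over all genes. None of the 16 was a DEG, and 15 had a positive log2 fold change, beside 47.7% of all genes. At an unadjusted p under 0.05, 9 were higher and 1 lower, where 4.28% of all genes were higher and 4.18% lower. Of the 16, 15 were DEG of the energy contrast at low protein (below). Among all DEG up-regulated there, 94.4% were positive here and 32.4% were higher at that p. Malic enzyme ME1, a source of NADPH, had 64.95 to 167 CPM in HPHE heifers (median 132) and 28.0 to 97.2 CPM in HPLE heifers (median 54.4). Its log2 fold change was 1.20 (SE 0.367, edgeR FDR 0.272). For ACLY, which splits citrate into acetyl-CoA, the medians were 430 and 189 CPM and the log2 fold change was 1.28 (SE 0.460, edgeR FDR 0.398).

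SCD, the stearoyl-CoA desaturase, ranged from 7700 to 20160 CPM in HPHE heifers (median 16410) and from 4344 to 11510 CPM in HPLE heifers (median 7789). Only the lowest HPHE heifer fell into the HPLE range, and the log2 fold change was 1.06 (SE 0.340, edgeR FDR 0.324). ELOVL6, the elongase of palmitate, had medians of 1609 and 794 CPM, with a log2 fold change of 0.98 (SE 0.326, edgeR FDR 0.344). FADS2, the delta-6 desaturase, was the exception at -0.63 (edgeR FDR 0.54), with 7.21 to 24.9 CPM in HPHE heifers and 13.8 to 31.2 CPM in HPLE heifers. Summed over the 16 genes, expression was 25980 to 52700 CPM in HPHE heifers and 17810 to 47820 CPM in HPLE heifers, where the lowest HPHE value was heifer 15 and the highest HPLE value heifer 7. Those were the heifers whose removal raised the count of DEG to 63 and 78. Without HPLE heifer 7, 8 of the 16 genes were DEG and the list's median was 0.89.

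In the other metabolic lists the log2 fold changes were mostly positive, while GSTM1 was the single DEG. Nearly all tested members were DEG of the energy contrast at low protein. Of all DEG up-regulated there, 94.4% were positive here, beside 47.7% of all genes. The counts of positive genes below are therefore no independent result about these pathways. All 15 tested genes of glycolysis and the pentose phosphate pathway were positive, with a median of 0.41 and 8 higher at an unadjusted p under 0.05. LDHB, a lactate dehydrogenase subunit, had medians of 896 and 549 CPM (log2 fold change 0.63, edgeR FDR 0.381), and ALDOA, aldolase A, medians of 2214 and 1462 CPM (0.53, edgeR FDR 0.359). HK2, a hexokinase, was highest on the log2 scale at 0.77 (edgeR FDR 0.626). The 11 genes of the TCA cycle were all positive (median 0.29), with SDHC, a subunit of succinate dehydrogenase, lowest at 0.14. Positive values were also found for 46 of 47 genes of the electron transport chain and ATP synthase (median 0.25), from -0.06 for NDUFA12 to 0.65 for NDUFA10, both subunits of complex I. Among the 14 genes of branched-chain amino acid breakdown, all were positive, with a median of 0.24 and a range of 0.05 (HIBCH) to 0.60 (ACADSB).

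Sterol synthesis genes (6 tested, 5 of them DEG at low protein) were positive throughout, with a median of 0.39. Lanosterol synthase LSS had medians of 188 and 104 CPM (log2 fold change 0.68, edgeR FDR 0.466). PROSC, a pyridoxal phosphate-binding protein, reached 95.6 to 146 CPM in HPHE heifers and 42.1 to 90.0 CPM in HPLE heifers, without overlap (edgeR FDR 0.275).

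The 8 glutathione genes tested, all DEG at low protein, had a median of 0.41. Of these, 7 were positive, and GPX7, a peroxidase of the endoplasmic reticulum, was at -0.35. The other antioxidant and detoxification genes, 12 of them DEG at low protein, were positive in 13 of 13 cases. Their median was 0.46, with 9 higher at an unadjusted p under 0.05. NQO1, a quinone reductase, had medians of 82.6 and 49.6 CPM (log2 fold change 0.83, SE 0.260, edgeR FDR 0.303). PIR, the iron-binding protein pirin, had 29.99 to 62.1 CPM in HPHE heifers and 14.5 to 27.6 CPM in HPLE heifers, without overlap (0.78, SE 0.238, edgeR FDR 0.275).

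Among genes of lipid storage and adipocyte hormones, PLIN5, which coats lipid droplets, had medians of 5.24 and 1.39 CPM (log2 fold change 1.75, edgeR FDR 0.381), and C19orf80, a hormone-like inhibitor of lipoprotein lipase, 340 and 77.9 CPM (1.48, edgeR FDR 0.409). Leptin (LEP), the adipocyte satiety hormone, ranged from 296 to 794 CPM in HPHE heifers (median 464) and from 82.0 to 589 CPM in HPLE heifers (median 217), with a log2 fold change of 1.14 (SE 0.389, edgeR FDR 0.359). QPRT, which makes a precursor of NAD from tryptophan, had medians of 124 and 66.6 CPM (0.96, edgeR FDR 0.213). PDK4, the kinase that shuts off pyruvate dehydrogenase, had medians of 133 and 193 CPM (-0.71, edgeR FDR 0.557), and CPT2, of mitochondrial fatty acid uptake, 114 and 72.6 CPM (0.59, edgeR FDR 0.344).

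The 12 collagen and elastic matrix genes tested had a median of -0.17, 9 of them negative, and none was a DEG. Of the 12, 11 were DEG at low protein. Among all DEG down-regulated there, 88.9% were negative here, beside 52.3% of all genes. COL1A1, a chain of type I collagen, had 5196 to 13010 CPM in HPHE heifers (median 7939) and 7260 to 19670 CPM in HPLE heifers (median 13460), with overlapping ranges (log2 fold change -0.66, SE 0.332, edgeR FDR 0.587). COL1A2, its partner chain, had a log2 fold change of -0.66 (edgeR FDR 0.54). Elastin (ELN) was at 0.16, with the highest value in an HPHE heifer at 2087 CPM. The growth hormone axis genes IGFALS, which carries insulin-like growth factors in plasma, and CISH, a feedback inhibitor of cytokine receptors, had log2 fold changes of -1.01 (edgeR FDR 0.427) and -0.65 (edgeR FDR 0.54). IGFBP6 and IGF2 of the same list were at -0.29 and 0.04. All 4 were DEG at low protein, so their signs are no independent result.

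Cell type markers were compared to see what moved with diet. Only markers with a symbol in the study's tables could be summed, which held for 2 of 10 adipocyte and 3 of 7 lymphatic markers listed. Of the 13 library measures, 6 had an adjusted p under 0.1 (exact permutation test, two-sided). The adipocyte markers LEP and CIDEC summed to 2123 to 3269 CPM in HPHE heifers and 1238 to 2759 CPM in HPLE heifers (exact permutation test, two-sided, p = 0.0238, 0.0619 after adjustment over 13 library measures). Lymphatic markers (LYVE1, FLT4 and CCL21) summed to 18.7 to 46.8 CPM in HPHE heifers and 48.5 to 102 CPM in HPLE heifers, without overlap (exact permutation test, two-sided, p = 0.00216, the smallest possible, adjusted 0.014), although none of the 3 was a DEG. Smooth muscle markers (DES, MYH11, CNN1 and ACTG2) summed to 6462 CPM in HPHE heifer 15 against 69.9 to 605 CPM in the other 11 heifers. Leaving out that heifer turned the median log2 fold change of these 4 genes from 1.39 to -0.80. Skeletal muscle markers were highest in 1 heifer of each diet, at 153 CPM in HPHE heifer 11 and 147 CPM in HPLE heifer 9. The 3 epidermal and gland markers were split and none was a DEG, with the keratin gene KRT19 at a log2 fold change of 1.66 (edgeR FDR 0.381), the desmosome genes DSP at -1.50 (edgeR FDR 0.597) and DSC1 at -0.97 (edgeR FDR 0.91). The epidermal sum, mostly KRT19, had an adjusted p of 0.0494 in the exact permutation test. In that test the adjusted p was 0.075 for macrophages (GPNMB alone), 0.0188 for bone and cartilage (SOST and ACAN) and 0.014 for Schwann cells. SOST and S100B made up most of the last 2 sums. S100B was a DEG of these same heifers, and SOST and GPNMB were among the 10 genes next by p. These adjusted p are therefore no separate evidence. Without S100B the Schwann cell sum was 19.99 to 84.15 CPM in HPHE heifers and 19.52 to 48.46 CPM in HPLE heifers. The part of any cell type in the DEG was not tested.

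**Figure D2:**
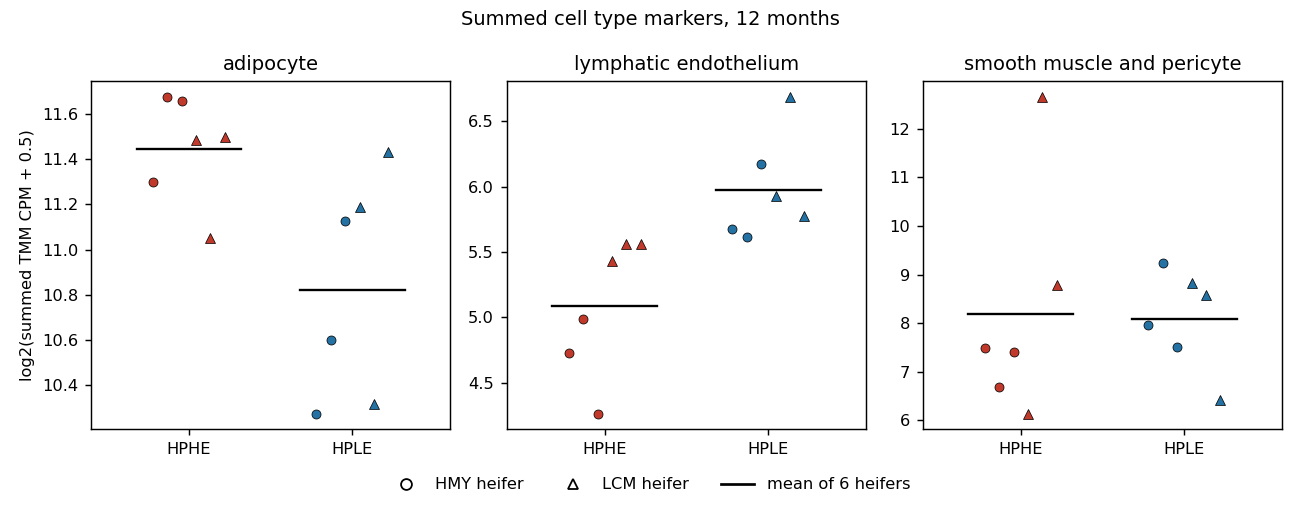
Summed TMM-normalized CPM of cell type markers on a log2 scale with a pseudocount of 0.5, 1 point per heifer and a line at the mean of 6 heifers. Lymphatic markers do not overlap between diets, and HPHE heifer 15 stands apart in smooth muscle markers at 6462 CPM.

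The same energy contrast at low protein came from 12 other heifers of 12 months and held 1216 DEG (9.12% of genes), of which 746 were up-regulated in LPHE against LPLE heifers and 470 were down-regulated. Of the 746, 704 (94.4%) had a positive log2 fold change in the high-protein heifers too, beside 47.7% of all genes, and their median was 0.30 at high and 0.66 at low protein. Of the 470, 418 (88.9%) were negative, with medians of -0.23 and -0.69. At an unadjusted p under 0.05, 32.4% of the 746 were higher in HPHE heifers and 16.8% of the 470 were lower. The medians at low protein belong to genes selected there, so their size is not comparable with that at high protein. Of the 13 DEG, 7 were also DEG at low protein (SERPINA5, S100B, NNAT, GSTM1, REXO2, UNC79 and BAIAP2L1) and 10 had the same sign.

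**Figure D3:**
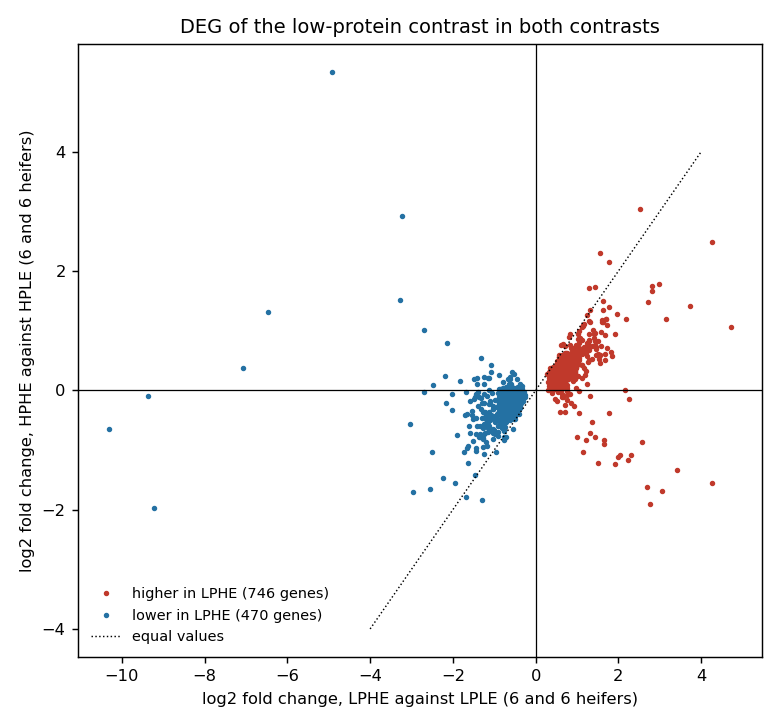
Log2 fold change of the energy contrast at low protein (x axis) and high protein (y axis) for the 1216 DEG of the low-protein contrast, 1 point per gene. Most red points (704 of 746) lie above 0 and most blue points (418 of 470) below 0 on the y axis.

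The difference between both energy contrasts was tested directly and passed for 10 genes (0.075% of those tested, edgeR likelihood ratio test), 9 of them lower in the high-protein contrast. SELE was among them, with log2 fold changes of -3.12 at high and 1.40 at low protein (difference -4.52, SE 1.04, edgeR FDR 0.0488). PLAC8, a gene of myeloid and lymphoid cells, had -1.16 at high and 2.24 at low protein (difference -3.40, edgeR FDR 0.0511), and CD180, a toll-like receptor homologue of B cells, -0.86 and 2.58 (difference -3.44, edgeR FDR 0.0372). ENSBTAG00000016148 and ENSBTAG00000047529 passed as well. For this difference the quasi-likelihood F test called 0 genes, with 531 at an unadjusted p under 0.05, and DESeq2 called 11. The count moved between 1 (without HPHE heifer 6, HPLE heifer 13 or LPLE heifer 14) and 30 (without LPLE heifer 18) when 1 heifer was left out.

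The interferon response genes MX2, OAS1X, CXCL10 and UBD had log2 fold changes between -1.56 and -0.83 at high protein, where none was a DEG. These 4 of the 23 genes listed have a symbol because they were DEG of the low-protein contrast, so their median of 2.86 there is fixed by that choice. The difference passed the test for CXCL10 (-4.76, edgeR FDR 0.0929) and UBD (-2.47, edgeR FDR 0.0788), named here after their values were seen. In the antiviral GTPase gene MX2, HPHE heifers ranged from 1.505 to 24.9 CPM and HPLE heifers from 0.782 to 231 CPM. HPLE heifer 1 held the 231 CPM, and it also held the highest IDO1, a tryptophan-degrading enzyme of the interferon response, at 431 CPM. Without HPLE heifer 1 the median of the interferon list at high protein was -0.10 in place of -1.21.

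Pedigree was examined with 3 heifers per diet and pedigree. The energy effect differed between HMY and LCM heifers for 5 genes (0.0375% of those tested, edgeR likelihood ratio test), and SOST was the only one with a symbol. In HMY heifers SOST had a log2 fold change of 5.58 (SE 0.881) and in LCM heifers of 0.91 (SE 0.728), a difference of 4.66 (SE 1.08, edgeR FDR 0.05). Within HMY heifers 160 genes passed (1.2%) and within LCM heifers 0, with 617 at an unadjusted p under 0.05. HPLE heifer 7 and HPHE heifer 15, without which 78 and 63 DEG were called at 12 months, were both LCM. Their part in the split of 160 and 0 was not tested. The quasi-likelihood F test called 0 genes for the pedigree difference, with 892 at an unadjusted p under 0.05. Leaving out 1 heifer gave between 0 (without HPLE heifer 9 or HPHE heifer 15) and 34 genes (without HPLE heifer 13).

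The same 12 heifers were sampled again in month 7 of gestation. Experimental diets had ended by then, per the study's methods, since they were fed until pregnancy was established. Pregnancy was targeted at the same body weight, and low-energy heifers reached it at a later age than high-energy heifers. Former diet and age therefore cannot be told apart in gestation, nor in the difference between sampling times. In gestation 125 genes were DEG between the former HPHE and HPLE heifers (0.933% of 13403 tested), 24 higher and 101 lower in HPHE heifers. The quasi-likelihood F test called 0 genes, with 1216 at an unadjusted p under 0.05, and DESeq2 called 173. Without HPLE heifer 7 there were 35 DEG and without HPLE heifer 13 there were 336. None of the 10 DEG of 12 months that could be tested in gestation was a DEG there (lowest FDR 0.884), and their log2 fold changes lay between -0.46 and 0.51.

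Of the 16 fatty acid synthesis genes, 15 had the opposite sign in gestation, and FADS2 was negative at both times. In gestation all 16 were negative, where 52.3% of all genes were positive, with a median of -1.21. Of the 16, 15 were DEG at low protein. Among all DEG up-regulated there, 676 of the 731 tested in gestation were negative, with a median of -0.29. The shared sign is therefore no independent result about this list. At an FDR under 0.1, 10 were lower in HPHE heifers, where 0.754% of all genes were (2 without HPLE heifer 7 and 14 without HPLE heifer 13). SCD ranged from 1015 to 2613 CPM in HPHE heifers (median 2053) and from 1500 to 10260 CPM in HPLE heifers (median 5865), a log2 fold change of -1.66 (SE 0.472, edgeR FDR 0.0635). HPHE heifers had been the higher group at 12 months, at a median of 16410 CPM. The difference between sampling times was tested in 1 model and passed for 240 genes (1.75% of 13718 tested), 197 of them more positive at 12 months (1.44%). In the 24 high-protein samples alone it passed for 507 genes, and for 1091 (8.11%) once heifer was added there as a block. In the 48 samples the quasi-likelihood F test called 80, all among the 240. The count fell to 22 without HPLE heifer 1 and reached 503 without HPLE heifer 7.

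**Figure D4:**
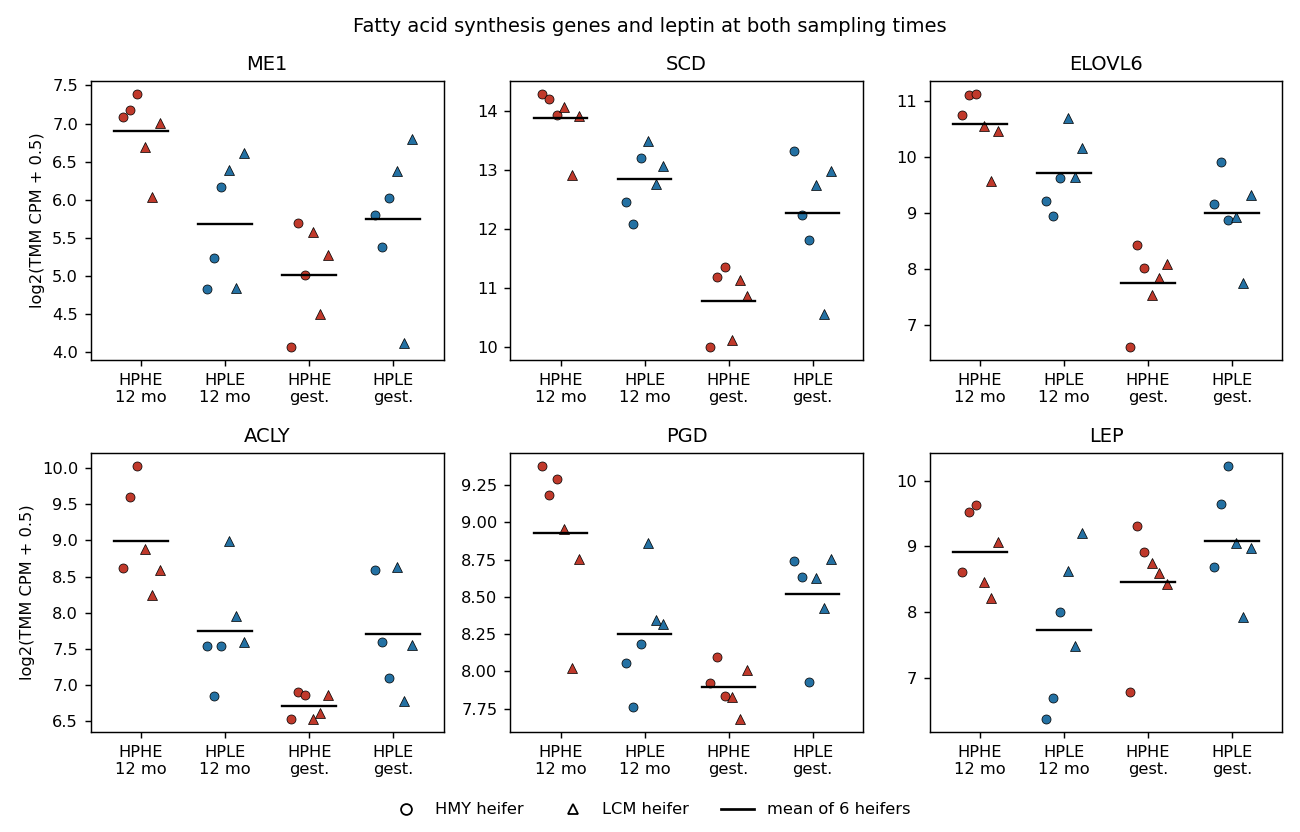
TMM-normalized CPM of 5 fatty acid synthesis genes and leptin on a log2 scale with a pseudocount of 0.5 in the same 12 heifers at 12 months and in month 7 of gestation, 1 point per heifer and a line at the mean of 6. Means are higher in HPHE heifers at 12 months and higher in HPLE heifers in gestation, with overlapping ranges.

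For 13 of the 16 fatty acid synthesis genes the energy effect differed between sampling times (14 in the 24 high-protein samples and 15 there with heifer as a block, 10 in the quasi-likelihood F test, 4 without HPLE heifer 1). ACSS2, which activates acetate, had a log2 fold change of 0.68 at 12 months and -1.62 in gestation (difference 2.27, SE 0.484, edgeR FDR 0.00733). C19orf80 had 1.48 and -3.40 (difference 4.47, SE 1.01, edgeR FDR 0.00967). PCYT2, of phosphatidylethanolamine synthesis, had 0.44 and -1.58 (difference 2.01, edgeR FDR 0.00708).

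Genes with the reverse pattern were KLF11, a Kruppel-like transcription factor, at -0.60 and 1.09 (difference -1.74, SE 0.318, edgeR FDR 0.000603), and CPT1A, which admits fatty acids to mitochondria, at -0.22 and 1.11 (difference -1.35, edgeR FDR 0.00659). KLF11 had 206 to 317 CPM in HPHE heifers and 84.9 to 183 CPM in HPLE heifers in gestation, without overlap, and 54.8 to 96.9 against 90.1 to 147 CPM at 12 months. LEP had a difference of 1.61 with an FDR of 0.121, of 0.22 in the 24 high-protein samples and of 0.0305 there with heifer as a block (all edgeR).

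Several other lists also passed for part of their members, beside 1.75% of all genes tested. Nearly all tested members of these lists were DEG at low protein, so the direction they share is no independent result. The energy effect of 19 of 47 electron transport genes differed between sampling times (34 in the 24 high-protein samples and 38 there with the block), of 7 of 15 glycolysis and pentose phosphate genes (11 and 14) and of 4 of 11 TCA cycle genes (8 and 10), each more positive at 12 months. Without HPLE heifer 1 none of the genes of these 3 lists passed in the model of both protein levels. Collagen genes passed in 0 of 12 cases, and 1 with the block. Of the 13 DEG of 12 months, SERPINA5, S100B, NNAT, SELE and REXO2 passed, where 1.75% of all genes did. In the 24 high-protein samples 6 passed, and with the block 9 of the 11 that could be tested (8.11% of all genes). The 13 were called from values of 12 months that also enter this difference, so these counts are no separate evidence.

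**Figure D5:**
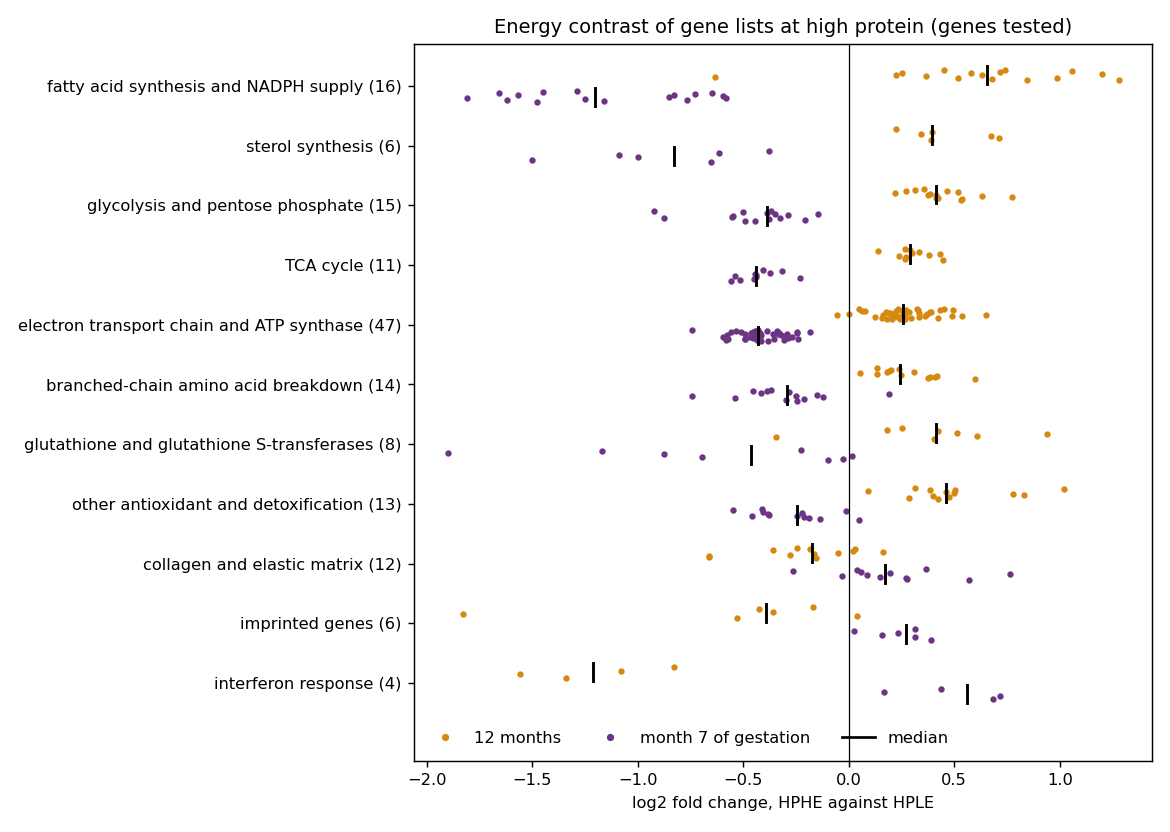
Log2 fold change of HPHE against HPLE heifers for each tested gene of 11 lists (numbers in brackets) at 12 months and in month 7 of gestation, with a bar at the median. Fatty acid synthesis has a median of 0.65 at 12 months and -1.21 in gestation, and collagen has -0.17 and 0.17.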

How the data were processed

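Subcutaneous adipose RNA of 24 heifers was sequenced at 2 sampling times, and the 12 high-protein samples of 12 months were compared. Libraries were made with an unstranded Illumina kit. The authors trimmed reads with Cutadapt (1.3), aligned them to UMD3.1 with Tophat (2.0.12) and used HTSeq-count to assign reads to Ensembl genes, so the deposited values are raw counts that were not normalized. The strand setting of the counting is not given in the sources used here, so overlapping and antisense genes cannot be separated with certainty. The 5 summary rows of the counting tool were left out. Groups came from the sample titles and labels.

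Genes reaching 2 CPM in 3 or more samples of a sampling time were kept (13339 of 24616 at 12 months). Counts were TMM-normalized, and a negative binomial model with diet and pedigree was fitted to the 24 samples of a sampling time with glmFit of edgeR (4.0.16) in R 4.3.3, with DEG at an FDR under 0.1 over all genes (likelihood ratio test, Benjamini-Hochberg). Each SE was back-calculated from its likelihood ratio statistic. Differences of the energy effect between protein levels, pedigrees and sampling times were contrasts of the same kind, the last in a model of all 48 samples. Samples of the same heifer at both times deviated together (correlation over genes 0.119 to 0.446, median 0.255, over 0.1 in 12 of 12 heifers), so a fit of the 24 high-protein samples with heifer as a block is given beside it. Single values were compared by an exact permutation test of log2 values with a pseudocount of 0.5, over 924 splits. Alternatives were the quasi-likelihood F test, DESeq2 (1.42.0), other scalings, filters, thresholds and sample sets, each heifer left out, and a dispersion prior of 10 degrees of freedom, added after the data were seen. Scripts were tested on simulated counts.

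Genes were named from all DEG, the next 10 genes by p, for each list the genes with the highest and lowest log2 fold change and those with the smallest p, and the leading genes of the other contrasts, of which the text gives a part. Symbols come from the study's tables, which hold 1101 identifiers, so only 256 of 762 list entries had one. Most of those were DEG of the low-protein contrast, and a few were picked by the study from the high-protein heifers, so the lists are no independent evidence of direction. Members and lists were chosen with earlier results of these data known. The 4 lists of cell division, blood endothelium, lymphocytes and blood cells had no tested member. Nothing in the labels says how libraries were batched. Counting error is small at this depth and the spread between heifers limits the precision. Results for a few genes and for the lists that rest on them are not reported here.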

Additional observations from a re-analysis of the deposited data

Results flagged for a closer look

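Single heifers stood far from the other 5 of their diet in 13 of 72 sets of 6 values examined, where chance marks about 1 in 20 if values are normal and independent. CPM values are skewed and GPNMB enters in both forms named below, so the rate of chance here was not established. Among the named genes these were the highest HPLE heifer in ENSBTAG00000016148 (5.30 CPM), ENSBTAG00000047529 (96.4 CPM), SOST (10.9 CPM) and GPNMB (624 CPM), and the highest HPHE heifer in ENSBTAG00000045632 (0.141 CPM), GPNMB (91.9 CPM) and ENSBTAG00000013107 (8.70 CPM). GPNMB was also the only macrophage marker that could be tested, so the macrophage sum stood apart at the same 91.9 and 624 CPM. Among the summed markers, skeletal muscle stood apart in 1 heifer of each diet (153 CPM in HPHE and 147 CPM in HPLE), smooth muscle in an HPHE heifer (6460 CPM) and epidermal markers in an HPLE heifer (51.6 CPM).

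The energy effect, as a log2 fold change, differed between protein levels for ENSBTAG00000016148 (high minus low protein -5.95), ENSBTAG00000047529 (-7.89), SELE (-4.52), CD180 (-3.44) and PLAC8 (-3.40) by a test of the difference itself. On the high-protein side ENSBTAG00000047529 rested on HPLE heifer 13 alone. Without that heifer 1 gene passed this test. Between pedigrees it differed for ENSBTAG00000018833 (HMY minus LCM 4.90), SOST (4.66), ENSBTAG00000002980 (3.16), ENSBTAG00000027715 (2.82) and ENSBTAG00000005997 (-2.02). Between sampling times it differed for ENSBTAG00000014486 (12 months minus gestation 4.10), ACSS2 (2.27), PCYT2 (2.01), KLF11 (-1.74) and CPT1A (-1.35).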

How the results depend on the processing

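The quasi-likelihood F test called 0 genes in place of 13 DEG at 12 months, 10 for protein levels, 5 for pedigrees and 125 in gestation, and 80 in place of 240 for sampling times. DESeq2 called 25 genes at 12 months, 12 for pedigrees and 418 for sampling times. At 12 months 4 genes were called with at least 10 counts in every sample, 7 without pedigree in the model (5 of the 13 among them) and 4 at an FDR of 0.05, while 66 were called from the 12 high-protein samples alone and 25 from all 48. For protein levels the counts were 5 without the filter, 0 with at least 10 counts in every sample and 4 at an FDR of 0.05. A dispersion prior of 10 degrees of freedom, added after the data were seen, gave 11 genes for pedigrees. In gestation the 12 high-protein samples alone gave 189 and an FDR of 0.05 gave 76. For sampling times the 24 high-protein samples gave 507 without and 1091 with the replicate block of heifer, and an FDR of 0.05 gave 90. With 1 heifer left out the counts ran from 3 to 78 at 12 months, 1 to 30 for protein levels, 0 to 34 for pedigrees, 35 to 336 in gestation and 22 to 503 for sampling times. The cause of these differences was not tested. No log2 fold change of the 13 DEG or the next 10 genes reversed in any alternative, although 107 of 494 comparisons lost and 50 gained a call. The number of DEG with an exact p under 0.05 was 11 with each pseudocount. The DEG were called from these same values, so this count shows only that the pseudocount did not matter. CPM values under 1 rest on few reads.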

Other observations

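Regulators of other kinds were not DEG, but several had an unadjusted p under 0.05. KLF4, a Kruppel-like transcription factor gene, had 68.4 to 116 CPM in HPHE heifers (median 80.2) and 99.1 to 290 CPM in HPLE heifers (median 125). Its log2 fold change was -0.68 (SE 0.258, edgeR FDR 0.427). PPP1R3C, which targets a phosphatase to glycogen, had medians of 69.0 and 49.5 CPM (0.53, edgeR FDR 0.422). The small heat shock protein gene CRYAB had medians of 378 and 184 CPM (0.92, edgeR FDR 0.381), and HSPA6, an inducible heat shock protein gene, 6.82 and 2.90 CPM (1.17, edgeR FDR 0.474). FGF1, a fibroblast growth factor gene, had medians of 73.6 and 37.0 CPM (1.09, edgeR FDR 0.353), with HPHE heifers first in each pair.

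The clock-linked genes NFIL3 and DBP were at 0.56 and -0.57 on the log2 scale (edgeR FDR 0.652 for each). PSAT1, of serine synthesis, was at 0.64 (edgeR FDR 0.589) and ASNS, asparagine synthetase, at 0.19 (edgeR FDR 0.702). All 3 tested Wnt pathway genes other than SOST were negative, as were 52.3% of all genes. These 3 were DEG at low protein and negative there too, so their sign is no independent result. The lowest was APCDD1, a Wnt inhibitor, with medians of 41.7 CPM in HPHE heifers and 62.4 CPM in HPLE heifers (-0.53, edgeR FDR 0.583). The proteoglycan decorin (DCN) had medians of 2263 and 2876 CPM (-0.50, edgeR FDR 0.533).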
